A study of Mus musculus with 6 samples.

Results

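Gpnmb, Trem2, Cd68, Lgals3, Itgax, Ctsk, Ly6c2, Lyz2, Cd9 and Msr1 were examined as a group of genes known from lipid-laden and inflammatory macrophages. The rows whose gene name equals one of these symbols were taken, which gave 10 of 24489 gene entries, and all 10 had enough reads to be tested. Polyadenylated RNA from 1 liver lobe was sequenced, without treatment, in mouse pups at postnatal day 10 on a C3H/C57bl6J background. The comparison set 3 libraries of the genotype Jag1Ndr/Ndr against 3 of Jag1+/+, and asked which liver transcripts differ between them. Jag1 encodes a ligand of Notch receptors, and Ndr (Nodder) is a missense allele of it that is carried in every cell, so that the genotype is not limited to 1 cell type. Mice homozygous for it serve to study Alagille syndrome, a disease with too few bile ducts in the liver.

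Tissue macrophages clear lipoproteins, dying cells and debris through scavenger receptors and digest them in lysosomes. Macrophages that hold much lipid or cell debris, described in fat, plaque, brain and injured liver, make Trem2, Gpnmb, Cd9 and lysosomal enzymes, and are called lipid-associated macrophages. The liver holds resident Kupffer cells and takes up blood monocytes after injury, and the monocytes can become macrophages. Lyz2, Cd68 and Msr1 are also made by resident macrophages, and Ly6c2 marks the inflammatory monocytes of the mouse.

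The libraries held 12992592 to 59653111 reads. Levels are given as CPM, the reads of a gene relative to the reads of its library, scaled by TMM. A gene without reads could still be at 0.0503 CPM in the deepest and at 0.231 CPM in the shallowest library (3 reads, counting error only). Alb, the albumin of hepatocytes, took 16.9% to 17.3% of reads in Jag1+/+ and 10.3% to 13.03% in Jag1Ndr/Ndr libraries. Xist reads marked Jag1+/+ replicate 1 and Jag1Ndr/Ndr replicates 2 and 3 as female, so the sexes were unevenly spread. The labels do not say that each library is a separate animal, and p-values measure the spread between these libraries, part of which may be technical. Ndr changes 1 amino acid, so the level of Jag1 RNA is no check of the labels. In bulk liver, more cells of a type and more RNA per cell cannot be told apart.

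Promoter windows were searched for short sites of factors that act in macrophages, because the genes that follow share a cell type and several of them moved together. RefSeq on GRCm38.p6 gave 300-base windows, from 250 bases before to 50 after a start site, for 9 of the 10 genes, and none for Msr1. AP-1, which binds TGACTCA, is a general activator in stimulated cells. PU.1, which binds around GAGGAAG, is the lineage factor of macrophages. The E-box CACGTG and the site TCATGTG are bound by MITF, TFEB and TFE3, which drive lysosomal genes. The windows of Gpnmb, Trem2 and Cd68 are shown because these are the genes past the threshold that held one of the sites. Each is read along the gene's own strand, 5′ to 3′, and capitals mark the sites, on either strand.
Gpnmb (AP-1 site, chr6:49036268-49036567, plus strand): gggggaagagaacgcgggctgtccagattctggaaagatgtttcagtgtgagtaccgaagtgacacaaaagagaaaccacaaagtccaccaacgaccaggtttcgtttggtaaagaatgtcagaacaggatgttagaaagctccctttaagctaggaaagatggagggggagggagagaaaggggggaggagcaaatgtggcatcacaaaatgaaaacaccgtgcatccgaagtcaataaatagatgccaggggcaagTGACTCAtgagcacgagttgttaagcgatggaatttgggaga
Trem2 (PU.1 core, chr17:48346151-48346450, plus strand): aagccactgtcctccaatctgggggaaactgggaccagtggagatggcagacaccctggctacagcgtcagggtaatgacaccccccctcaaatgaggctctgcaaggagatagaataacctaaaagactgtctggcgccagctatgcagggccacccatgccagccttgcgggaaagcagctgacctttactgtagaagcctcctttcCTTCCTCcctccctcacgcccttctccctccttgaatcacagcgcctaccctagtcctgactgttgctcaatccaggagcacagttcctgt
Cd68 (AP-1 site, chr11:69666121-69666420, minus strand): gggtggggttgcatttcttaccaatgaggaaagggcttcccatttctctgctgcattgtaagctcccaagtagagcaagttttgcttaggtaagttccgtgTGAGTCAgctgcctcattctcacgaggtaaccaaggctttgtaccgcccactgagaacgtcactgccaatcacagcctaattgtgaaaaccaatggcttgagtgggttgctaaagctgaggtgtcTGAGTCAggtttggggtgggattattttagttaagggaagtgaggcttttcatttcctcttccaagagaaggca

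In Gpnmb the AP-1 site began 8 bases past the start base. In Cd68 there were 2 AP-1 sites, at positions -149 and -24 from the start, and in Trem2 the PU.1 core stood at -41. AP-1 sites stood in the windows of 3 of the 9 genes, the third being Itgax, beside 5.20% of all 32817 windows. PU.1 cores stood in 3 of the 9 as well, in Ctsk and Ly6c2 beside Trem2, against 13.6% of all windows. CACGTG, found in 7.15% of windows, and TCATGTG, found in 3.78%, were in none of the 9. The motifs do not overlap one another in these windows, and a match describes letters only, not a bound site.

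Of the 10 genes, 6 were higher in Jag1Ndr/Ndr livers, none was lower, and 4 did not pass the test. In CPM, Gpnmb changed by the largest factor of the 10, followed among the 6 by Trem2, Lgals3, Cd9, Lyz2 and Cd68. Of all 13819 genes tested, 7.63% were called, 4.73% higher and 2.90% lower (quasi-likelihood test of edgeR, Benjamini-Hochberg adjustment, threshold 0.05). Of these calls 62.0% were higher, against 74.3% with library totals in place of TMM and 79.3% on the deposited RPKM, whose header factors multiply, and 54.5% on RPKM with these factors dividing. The levels of the 2 genotypes did not overlap, with Jag1Ndr/Ndr higher, in 8 of the 10 genes. Over all genes 29.0% did not overlap, 14.8% with Jag1Ndr/Ndr higher and 14.2% with it lower. The log2 fold change was positive for all 10, with a median of 1.20 beside 0.00 over all genes. Differences are given as Jag1Ndr/Ndr over Jag1+/+ throughout.

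**Figure D1:**
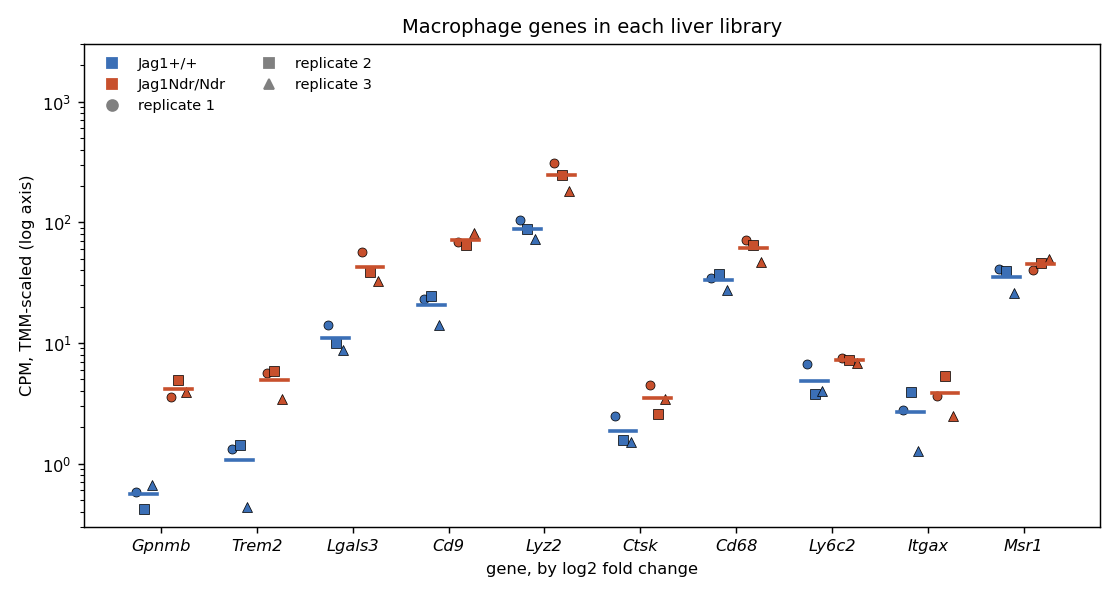
CPM of each of the 10 genes in each library, on a log axis, with Jag1+/+ in blue and Jag1Ndr/Ndr in orange, symbols for replicates 1 to 3 and lines at the means. Gpnmb, Trem2, Lgals3, Cd9, Lyz2 and Cd68, the 6 genes past the threshold, show separate groups, while the groups of Itgax and Msr1 overlap.

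Among the receptors and surface proteins of lipid-associated macrophages, Gpnmb, Trem2 and Cd9 were all higher in Jag1Ndr/Ndr livers. Gpnmb is a transmembrane glycoprotein of lysosomes and the cell surface that is induced when lysosomes are loaded. Its level was 0.579, 0.422 and 0.671 CPM in Jag1+/+ replicates 1, 2 and 3, and 3.54, 4.92 and 3.94 CPM in Jag1Ndr/Ndr replicates 1, 2 and 3. The 3 Jag1Ndr/Ndr libraries lay close together and all far above the Jag1+/+ libraries. The gene was nevertheless a weak one, with 10, 13 and 26 reads in Jag1+/+ and 40, 351 and 74 in Jag1Ndr/Ndr libraries. The log2 fold change was 2.89 ± 0.31 (SE, n = 3 per genotype), a 7.42-fold difference, with an adjusted p of 0.00301 by edgeR's quasi-likelihood test. On the deposited RPKM scale with a pseudocount of 1, which exceeds the gene's own level in Jag1+/+, the log2 difference came to 0.99.

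Trem2 is a lipid-sensing receptor that signals through the adaptor Tyrobp. It stood at 1.33, 1.43 and 0.439 CPM in Jag1+/+ and at 5.67, 5.81 and 3.47 CPM in Jag1Ndr/Ndr libraries. In both genotypes replicate 3 was the lowest, and the groups stayed apart. This was a log2 fold change of 2.26 ± 0.45, with an adjusted p of 0.0230 by edgeR's quasi-likelihood test. The call was lost without Jag1+/+ replicate 1 (adjusted p = 0.0697, edgeR), without Jag1+/+ replicate 2 (adjusted p = 0.0578) and with sex as a covariate (adjusted p = 0.0584), at log2 differences of 2.43, 2.57 and 2.23. With a pseudocount of 1 on the deposited RPKM scale the log2 difference was 1.65.

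Cd9 is a tetraspanin, a membrane protein that gathers other proteins into patches, and marks scar-associated and lipid-associated macrophages, but platelets, epithelia and stromal cells make it too. Its level was 22.98, 24.7 and 14.2 CPM in Jag1+/+ and 68.3, 64.2 and 80.8 CPM in Jag1Ndr/Ndr libraries. Unlike Trem2, it was highest in Jag1Ndr/Ndr replicate 3, and every Jag1Ndr/Ndr library stood above every Jag1+/+ one. Its log2 fold change was 1.79 ± 0.23, with an adjusted p of 0.00468 by edgeR's quasi-likelihood test. Of its exon bases, 10.7% are shared with Gm26728 on the opposite strand, and the kit does not mark the strand, so reads there cannot be assigned to either gene. The other 9 genes share no exon bases with another gene of the GRCm38 annotation. None of the 10 platelet and megakaryocyte markers passed the test, though all 10 had positive log2 fold changes, and their summed level was 47.8 to 106 CPM in Jag1+/+ and 100.3 to 195 CPM in Jag1Ndr/Ndr libraries. Cholangiocyte markers, of the cells that line bile ducts, summed to 96.7 to 140 CPM in Jag1+/+ and 65.6 to 173 CPM in Jag1Ndr/Ndr libraries, highest in replicate 3, where Cd9 was highest too. This sum leans on Spp1, which lipid-associated macrophages make as well. Spp1 stood at 89.7, 82.8 and 52.7 CPM in Jag1+/+ and 18.3, 21.95 and 85.9 CPM in Jag1Ndr/Ndr libraries. Of 9 cholangiocyte markers tested, Cldn7 and Cldn4, which seal the gaps between epithelial cells, were called higher. Only 4 of the 9 had positive log2 fold changes, and the median was -0.22. The part of these cells in the level of Cd9 was not tested.

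Of the lysosomal and secreted proteins, Lgals3, Lyz2 and Cd68 were higher, and Ctsk did not pass the test. Lgals3 is galectin-3, a sugar-binding protein that macrophages secrete and that gathers on damaged lysosomes; bile duct cells can make it as well. Its level was 14.2, 9.96 and 8.70 CPM in Jag1+/+ and 56.3, 38.7 and 32.4 CPM in Jag1Ndr/Ndr libraries, so that each Jag1Ndr/Ndr library exceeded the highest Jag1+/+ library more than any Jag1+/+ library differed from another. Lgals3 thus had a log2 fold change of 1.96 ± 0.26, with an adjusted p of 0.00615 by edgeR's quasi-likelihood test.

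Lyz2 encodes the lysozyme of macrophages, monocytes and neutrophils, which cuts bacterial cell walls. Its level was 104, 87.2 and 72.9 CPM in Jag1+/+ and 307, 244.5 and 181.5 CPM in Jag1Ndr/Ndr libraries. Replicate 1 was the highest and replicate 3 the lowest in both genotypes, as for Lgals3. This came to a log2 fold change of 1.47 ± 0.24, with an adjusted p of 0.0107 by edgeR's quasi-likelihood test, and it rose to 0.0600 without Jag1+/+ replicate 2 and 0.0602 without Jag1+/+ replicate 3, at log2 differences of 1.46 and 1.35. Its neighbour Lyz1, the lysozyme of Paneth cells, has a transcript 96.0% identical over 1262 aligned bases, and how the authors counted shared reads is not stated in the sources used here. Lyz1 held 2, 4 and 3 reads in Jag1+/+ and 5, 13 and 7 in Jag1Ndr/Ndr libraries, and adding them to Lyz2 left the log2 fold change at 1.47. Neutrophil markers moved in the same direction. Of 12 tested, 7 were called higher, and their sum was 651 to 774 CPM in Jag1+/+ and 1102 to 2432 CPM in Jag1Ndr/Ndr libraries. That sum was highest in Jag1Ndr/Ndr replicate 2 and lowest in replicate 1, where Lyz2 was highest, and the part of neutrophils in the level of Lyz2 was not tested.

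Cd68 is macrosialin, a heavily glycosylated protein of macrophage lysosomes. It stood at 34.8, 37.6 and 27.5 CPM in Jag1+/+ and 71.8, 65.4 and 47.2 CPM in Jag1Ndr/Ndr libraries. The groups did not overlap, but the lowest Jag1Ndr/Ndr library was nearer to the highest Jag1+/+ library than to the others of its own genotype. The log2 fold change was 0.88 ± 0.20, with an adjusted p of 0.0351 by edgeR's quasi-likelihood test. The call of Cd68 was the least firm of the 6. It was lost in 10 of 18 alternatives, among them those without each Jag1+/+ library in turn (adjusted p = 0.110, 0.0971 and 0.157 for replicates 1, 2 and 3, edgeR), without Jag1Ndr/Ndr replicate 1 (0.0582) or 2 (0.0691), and with sex as a covariate (0.0670). The log2 difference stayed between 0.67 and 1.11 over all 18.

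Ctsk encodes cathepsin K, a lysosomal protease best known from osteoclasts, where it digests collagen. Its level was 2.49, 1.56 and 1.498 CPM in Jag1+/+ and 4.52, 2.59 and 3.47 CPM in Jag1Ndr/Ndr libraries. The groups lay just apart, with 2.49 CPM in the highest Jag1+/+ and 2.59 CPM in the lowest Jag1Ndr/Ndr library. Ctsk had a log2 fold change of 0.93 ± 0.33, with an adjusted p of 0.133 by edgeR's quasi-likelihood test. Fibroblasts make Ctsk too, and of 12 stellate cell and fibroblast markers none was called higher and 1 lower, with sums of 967 to 1111 CPM in Jag1+/+ and 678 to 1124 CPM in Jag1Ndr/Ndr libraries. Of 7 osteoclast markers, Calcr, Dcstamp and Oscar fell under the filter, with means of at most 0.0389 CPM in Jag1+/+, and none of the other 4 passed the test, with sums of 101.2 to 110.0 CPM in Jag1+/+ and 120 to 170.0 CPM in Jag1Ndr/Ndr libraries. Acp5 alone made up most of these sums, at 80.4, 85.2 and 88.2 CPM in Jag1+/+ and 137.0, 97.7 and 93.8 CPM in Jag1Ndr/Ndr libraries.

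Msr1, the class A scavenger receptor that takes up modified lipoproteins, was one of the 2 genes whose groups overlapped. It stood at 40.8, 39.2 and 26.2 CPM in Jag1+/+ and 39.9, 46.4 and 49.8 CPM in Jag1Ndr/Ndr libraries, and Jag1Ndr/Ndr replicate 1 lay below Jag1+/+ replicate 1. The log2 fold change was 0.36 ± 0.20, with an adjusted p of 0.328 by edgeR's quasi-likelihood test. Itgax encodes CD11c, the alpha chain of a beta-2 integrin carried by dendritic cells and by macrophages of fat and plaque. It was at 2.78, 3.96 and 1.27 CPM in Jag1+/+ and 3.63, 5.33 and 2.51 CPM in Jag1Ndr/Ndr libraries, with replicate 2 highest and replicate 3 lowest in each genotype. For Itgax the log2 fold change was 0.55 ± 0.45, with an adjusted p of 0.542 by edgeR's quasi-likelihood test. Of 10 dendritic cell markers tested none passed in either direction, and their sums overlapped, at 47.3 to 86.1 CPM in Jag1+/+ and 58.2 to 77.7 CPM in Jag1Ndr/Ndr libraries.

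Ly6c2 encodes a surface protein that is abundant on inflammatory monocytes. It stood at 6.66, 3.80 and 4.003 CPM in Jag1+/+ and 7.53, 7.29 and 6.77 CPM in Jag1Ndr/Ndr libraries. Jag1+/+ replicate 1 came close to the lowest Jag1Ndr/Ndr library, and the log2 fold change was 0.59 ± 0.26, with an adjusted p of 0.229 by edgeR's quasi-likelihood test. Scaling by library totals gave 0.70, and no alternative brought the gene past the threshold. Its neighbour Ly6c1, found on endothelial cells as well, has a transcript 97.6% identical over 822 aligned bases with a longest identical run of 188 bases, so reads of the pair may have been split unevenly. Ly6c1 held 0, 18 and 0 reads in Jag1+/+ and 3, 427 and 23 in Jag1Ndr/Ndr libraries, most of them in Jag1Ndr/Ndr replicate 2. With the reads of the pair summed, the log2 fold change was 0.97 and the adjusted p 0.0866 by edgeR's quasi-likelihood test. Monocyte markers other than Ly6c2 were called higher in 7 of 12, and none lower, with sums of 65.6 to 74.3 CPM in Jag1+/+ and 145 to 254 CPM in Jag1Ndr/Ndr libraries.

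**Figure D2:**
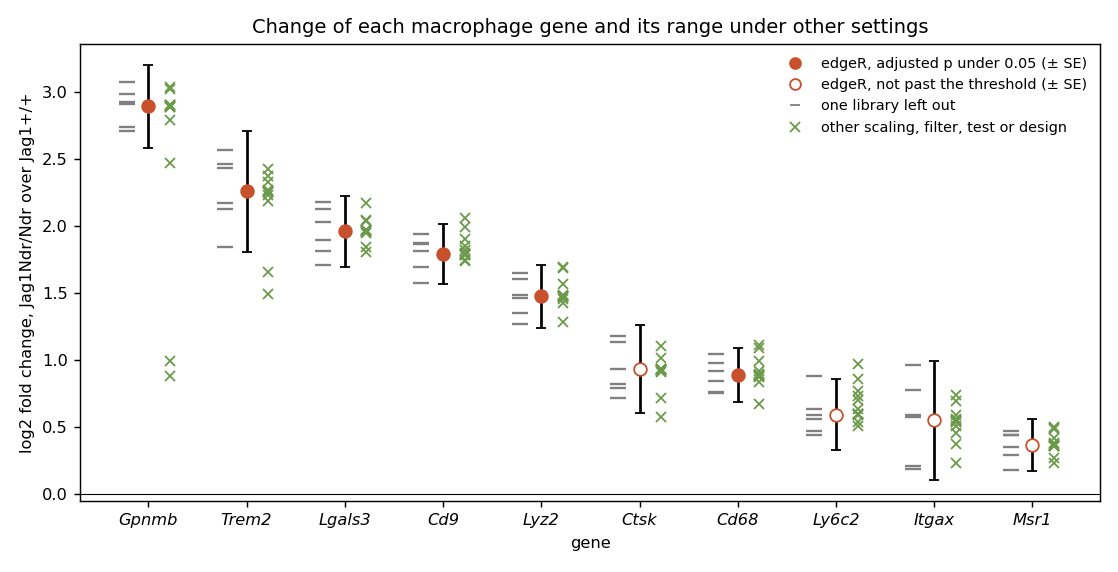
Log2 fold change of each gene by edgeR with its SE (filled circles, adjusted p under 0.05; open circles, other genes), beside its value without each library in turn (grey bars) and under the other settings (green crosses). All values of all 10 genes lie above 0, and the low crosses of Gpnmb and Trem2 come from RPKM with a pseudocount of 1.

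The libraries ranked in a partly shared order. Jag1+/+ replicate 3 was the lowest of its genotype in 8 of the 10 genes, and Jag1Ndr/Ndr replicate 3 the lowest of its own in 6. Jag1Ndr/Ndr replicate 1 was the highest in 5 genes, replicate 2 in 3 and replicate 3 in 2, the last being Cd9 and Msr1. The summed level of 13 markers shared by most macrophages was also lowest in replicate 3 of each genotype, at 642 CPM in the Jag1+/+ library and 1018 CPM in the other.

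Levels can be set side by side between genes only per length, and the deposited RPKM serves for this within a library. In every library Lyz2 had the highest RPKM of the 10, with 78.2 ± 14.5 in Jag1+/+ and 259 ± 87.6 in Jag1Ndr/Ndr (mean ± SD, n = 3 per genotype). Cd68 followed in Jag1+/+ with 25.1 ± 4.01, then Cd9 with 16.2 ± 4.49 and Msr1 with 14.8 ± 3.42, in this order in each Jag1+/+ library. In Jag1+/+ replicate 3 Cd9 and Msr1 were close, at 11.09 and 11.02. In Jag1Ndr/Ndr the RPKM of Cd9 was 69.3 ± 24.6 and that of Cd68 56.4 ± 22.2. Cd9 ranked below Cd68 in Jag1Ndr/Ndr replicate 1 and above it in replicates 2 and 3. Lgals3 stood below Msr1 in each Jag1+/+ library, at 7.45 ± 2.03 against 14.8 ± 3.42, and above it in each Jag1Ndr/Ndr library, at 33.8 ± 8.52 against 23.9 ± 13.2. Likewise Trem2, at 0.909 ± 0.462 RPKM in Jag1+/+ and 5.17 ± 2.47 in Jag1Ndr/Ndr, ranked above Ctsk in every Jag1Ndr/Ndr library but in 1 of 3 Jag1+/+ libraries. Gpnmb had the lowest RPKM in every Jag1+/+ library, with 0.138 ± 0.031. In Jag1Ndr/Ndr it reached 1.32 ± 0.68 and ranked above Itgax, at 1.16 ± 0.79, in 2 of 3 libraries. Each deposited RPKM was multiplied by a factor per library, which leaves the order of genes within a library as it is. The factors do enter the means and SDs over libraries, so these are no measure of the difference between genotypes.

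Of 13 markers shared by most macrophages, 2 were called higher and none lower, with a median log2 fold change of 0.57 beside 1.20 for the 10 genes. Cd14, a co-receptor for bacterial lipopolysaccharide, and Fcgr1, an Fc receptor, were the 2 called, with log2 fold changes of 3.03 ± 0.45 and 0.97 ± 0.22. Csf1r, the receptor for macrophage growth factor, had a log2 fold change of 0.29 ± 0.22 (adjusted p = 0.492, edgeR), and Adgre1, which encodes F4/80, one of 0.30 ± 0.20 (adjusted p = 0.426). Summed, the 13 markers stood at 642 to 969 CPM in Jag1+/+ and 1018 to 1373 CPM in Jag1Ndr/Ndr libraries.

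**Figure D3:**
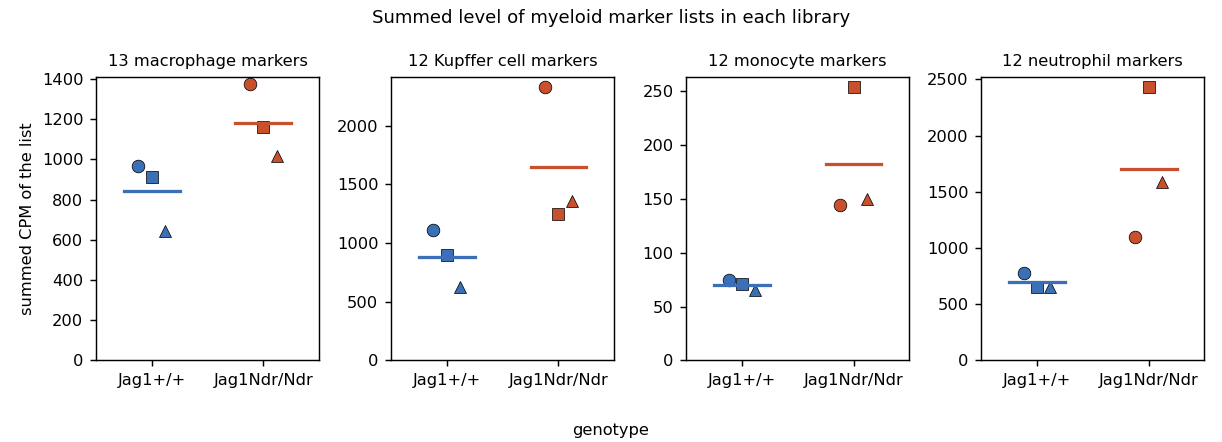
Summed CPM of 4 marker lists in each library, with symbols for replicates 1 to 3 and lines at the means of each genotype. The sums of general macrophage, Kupffer cell, monocyte and neutrophil markers lie higher in all 3 Jag1Ndr/Ndr than in all 3 Jag1+/+ libraries, with 145 to 254 against 65.6 to 74.3 CPM for monocyte markers.

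Each gene was therefore also expressed as a percentage of the summed CPM of the 13 general macrophage markers, a ratio that the scaling of the libraries cannot alter. Such a ratio does not remove the part of other cells that make Cd9, Lgals3 or Lyz2, and that part was not tested. Gpnmb came to 0.0597%, 0.0461% and 0.105% of that sum in Jag1+/+ and 0.258%, 0.424% and 0.388% in Jag1Ndr/Ndr libraries, a 5.28-fold difference in geometric means. Trem2 differed 3.63-fold, Lgals3 2.72-fold, Cd9 2.49-fold, Lyz2 1.93-fold and Cd68 1.29-fold. For each of these 6 the groups did not overlap, and the exact two-sided permutation test gave p = 0.1, the smallest that 3 against 3 libraries allow, so no p under 0.05 could be reached. The share of all genes that do not overlap in this ratio was not computed, and these 6 were already apart in CPM. Cd68 was the nearest to no difference, at 3.60%, 4.11% and 4.28% in Jag1+/+ and 5.23%, 5.64% and 4.64% in Jag1Ndr/Ndr libraries. For Ctsk, Ly6c2, Itgax and Msr1 the groups overlapped, with ratios of 1.35, 1.09, 1.07 and 0.918 and exact permutation p of 0.3, 0.8, 0.9 and 0.7.

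Against the summed level of 12 Kupffer cell markers, which was 626 to 1110 CPM in Jag1+/+ and 1252 to 2330 CPM in Jag1Ndr/Ndr libraries, Gpnmb, Trem2, Lgals3, Cd9 and Lyz2 stayed higher without overlap. They differed 4.04-fold, 2.78-fold, 2.08-fold, 1.91-fold and 1.48-fold (exact permutation p = 0.1 each, the smallest possible). For this ratio too, the share over all genes was not computed. Cd68 then overlapped, at a ratio of 0.990. Of the 12 Kupffer cell markers only Il18bp, a binding protein that blocks interleukin-18, was called, with a log2 fold change of 1.14 ± 0.20. Clec4f, a lectin found on Kupffer cells of the mouse, had one of 0.37 ± 0.23 (adjusted p = 0.386, edgeR). The sum leans on Cd5l and Marco. Cd5l stood at 308, 218 and 163 CPM in Jag1+/+ and 612, 332 and 395 CPM in Jag1Ndr/Ndr libraries (log2 fold change 0.96 ± 0.30, adjusted p = 0.0991, edgeR). Marco, a scavenger receptor, stood at 229, 158.0 and 77.0 CPM in Jag1+/+ and 945, 386 and 343 CPM in Jag1Ndr/Ndr libraries (log2 fold change 1.85 ± 0.49, adjusted p = 0.0579, edgeR).

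**Figure D4:**
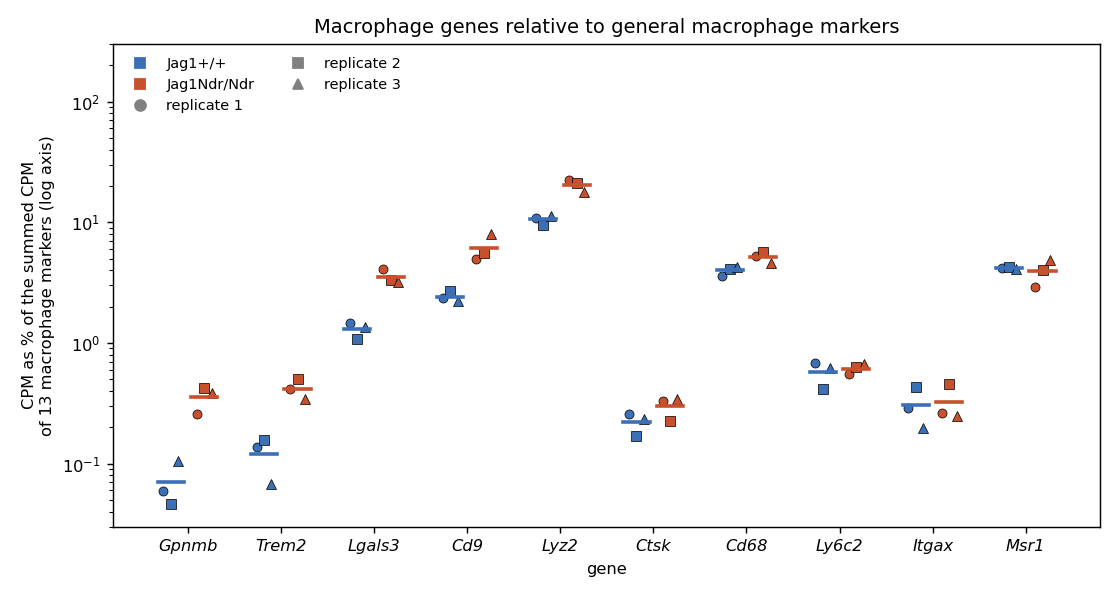
CPM of each gene as a percentage of the summed CPM of 13 general macrophage markers, on a log axis, for each library, with symbols and colours for replicate and genotype and lines at the means. Gpnmb, Trem2, Lgals3, Cd9, Lyz2 and Cd68 show separate groups, while Ctsk, Ly6c2, Itgax and Msr1 overlap.

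Tyrobp, Itgb2 and Cd63, named as a partner or relative of Trem2, Itgax and Cd9, had positive log2 fold changes that did not pass the test. Tyrobp, the adaptor through which Trem2 signals, stood at 38.1, 34.1 and 23.3 CPM in Jag1+/+ and 75.3, 60.0 and 44.9 CPM in Jag1Ndr/Ndr libraries. The groups did not overlap, and the log2 fold change was 0.92 ± 0.24 (adjusted p = 0.0575, edgeR). Itgb2, the beta chain that pairs with the Itgax product, had a log2 fold change of 0.91 ± 0.26 (adjusted p = 0.0709), and Cd63, a lysosomal tetraspanin related to Cd9, one of 1.01 ± 0.28 (adjusted p = 0.0675). Of 10 adaptors and kinases of Trem2 signalling, all had positive log2 fold changes, and Card9, which links such receptors to NF-kappaB, was the 1 called, at 1.65 ± 0.33. Trem1, the receptor of the same gene cluster that amplifies inflammation in neutrophils and monocytes, was the 1 of 5 other Trem genes called, at 1.99 ± 0.29.

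Of 28 other genes of the lipid-associated programme, 5 were higher and 1 lower, with a median log2 fold change of 0.45. Mmp12, the elastase of macrophages, was the largest at 2.81 ± 0.40, from 0.347, 0.162 and 0.362 CPM in Jag1+/+ to 1.59, 2.02 and 2.45 CPM in Jag1Ndr/Ndr libraries. It held only 6, 5 and 14 reads in Jag1+/+ and 18, 144 and 46 in Jag1Ndr/Ndr libraries, which limits the size of this fold. Lgmn, a lysosomal protease, rose by 0.90 ± 0.18, Fabp4, a fatty acid carrier, by 0.95 ± 0.23, Pld3, a lysosomal nuclease, by 0.77 ± 0.19, and Creg1, a lysosomal glycoprotein, by 0.68 ± 0.15. Abca1, which exports cholesterol, fell by 0.73 ± 0.18. This call was lost with library totals in place of TMM (-0.58, adjusted p = 0.227, edgeR), on the deposited RPKM (-0.46, adjusted p = 0.703, limma) and with sex as a covariate (adjusted p = 0.0743, edgeR). Lgmn, Fabp4, Pld3, Creg1 and Abca1 are also made by other cells of the liver, and the cells of origin were not measured. Spp1, the osteopontin made by lipid-associated macrophages and by bile duct cells, stood at 89.7, 82.8 and 52.7 CPM in Jag1+/+ and 18.3, 21.95 and 85.9 CPM in Jag1Ndr/Ndr libraries, with replicate 3 apart from the other two, and did not pass (adjusted p = 0.425, edgeR).

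Calls among other members of the protein families of the 10 genes are given beside 7.63% called over all genes, 4.73% higher and 2.90% lower. Of 13 other cathepsins, Ctsz, at 0.85 ± 0.21, and Ctsg, a protease of neutrophil granules, at 1.96 ± 0.41, were higher. Of 6 other galectins tested Lgals1 was higher, at 0.87 ± 0.20. None of 13 other scavenger receptors, 13 other tetraspanins, 3 other beta-2 integrin subunits or 4 other Ly6 genes passed by edgeR's quasi-likelihood test. Of the MITF and TFE factors that drive lysosomal genes, Tfe3 was the 1 of 4 called, at 0.65 ± 0.14, and Tfeb was at -0.13 ± 0.17 (adjusted p = 0.721).

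**Figure D5:**
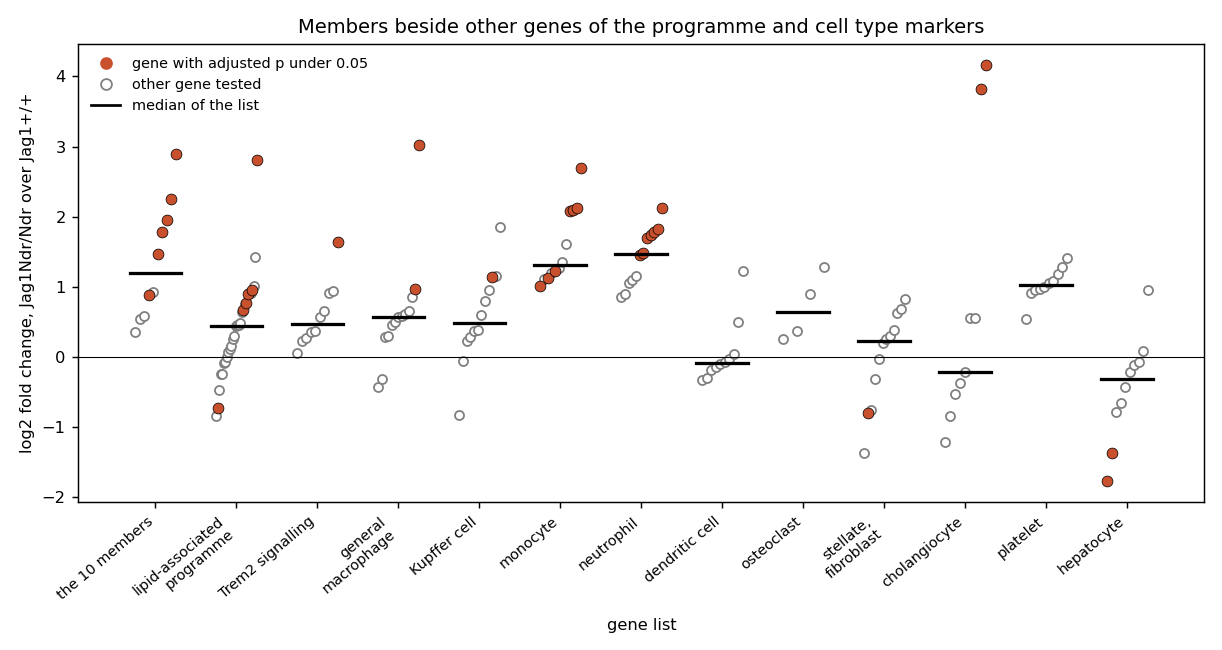
Log2 fold change of each tested gene of 13 gene lists, with filled circles for genes of adjusted p under 0.05 and a line at each list's median. The median of the 10 genes is 1.20, beside 0.45 for the rest of the lipid-associated programme, 0.57 for general macrophage, 1.31 for monocyte and 1.47 for neutrophil markers.

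Of 16 mediators made by inflammatory macrophages, Il6, Il12b, Ptgs2 and Cxcl2 fell under the filter. Among the 12 tested, 5 were higher and none lower, and the other 7, Tnf, Il1b, Il1a, Ccl4, Ccl5, Cd80 and Cd86, did not pass. Nos2, the inducible nitric oxide synthase, was at 0.174, 0.162 and 0.207 CPM in Jag1+/+ and 5.76, 10.03 and 3.52 CPM in Jag1Ndr/Ndr libraries, a log2 fold change of 5.12 ± 0.49. The Jag1+/+ levels rest on only 3, 5 and 8 reads, against 65, 715 and 66 in Jag1Ndr/Ndr libraries, which limits the size of this fold. Il1rn, the interleukin-1 receptor antagonist, rose by 2.27 ± 0.35, the monocyte attractant Ccl2 by 2.48 ± 0.39, the chemokine Ccl3 by 1.60 ± 0.40 and the receptor Tlr2 by 1.26 ± 0.25. Ccl3 held only 3, 8 and 9 reads in Jag1+/+ and 9, 54 and 10 in Jag1Ndr/Ndr libraries. DESeq2 did not call it (adjusted p = 0.0955). Of 8 markers of alternative activation tested, none passed by edgeR's quasi-likelihood test. Hepatocytes can make several of these mediators too. Among the called monocyte markers were Ifitm6 at 2.09 ± 0.24, S100a4 at 2.69 ± 0.49 and F13a1, a clotting factor subunit, at 2.13 ± 0.41. Of markers of other liver cells, 2 of 10 hepatocyte and 1 of 8 B cell markers were called lower, and none of 10 endothelial or 9 T and NK cell markers passed.

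The calls of Gpnmb, Lgals3 and Cd9 held without any 1 library. Of 34 called genes that the choice of named genes covers, 22 lost the call without at least 1 library and 12 held. Without Jag1+/+ replicates 1, 2 and 3 the calls lost were 18, 22 and 19, and without Jag1Ndr/Ndr replicates 1, 2 and 3 they were 8, 5 and 8. The highest adjusted p of a lost call went from 0.0518 for Trem1 to 0.211 for Ctsz (edgeR). With sex as a covariate 14 of the 34 lost the call, at adjusted p from 0.0528 for Tlr2 to 0.0882 for Ccl3 (edgeR), among them Lgmn, Creg1, Pld3, Abca1, Card9, Tfe3, Ctsg, Ctsz, Lgals1, Fcgr1 and F13a1. In that fit 2 genes of the lipid-associated list, 2 monocyte markers and 3 inflammatory mediators were called higher. Of the 34, those given above that held without each library in turn were Mmp12, Nos2, Il1rn, Cd14, Ifitm6 and Cldn7. Without Jag1+/+ replicate 1, 2 or 3, the count of the lipid-associated list fell from 5 to 1, 1 and 2, and that of monocyte markers from 7 to 1 each. The count of neutrophil markers went from 7 to 3 without Jag1+/+ replicate 2 or 3 and to 12 without Jag1Ndr/Ndr replicate 1. Inflammatory mediators past the threshold fell from 5 to 2 and 3 without Jag1+/+ replicate 2 or 3. Without Jag1Ndr/Ndr replicate 3 the lipid-associated count was 3.

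Among the genes whose pattern over the 6 libraries was most like that of Gpnmb were Mmp12 and Ccr1. Likeness was measured as the root mean square difference in log2 CPM centred on each gene's mean, which was 0.24 for Mmp12 and 0.28 for Ccr1. Ccr1, a chemokine receptor of monocytes and neutrophils, was at 0.637, 0.844 and 1.34 CPM in Jag1+/+ and 5.41, 8.84 and 7.25 CPM in Jag1Ndr/Ndr libraries. In both, as in Gpnmb, the 3 Jag1Ndr/Ndr libraries stood above the 3 Jag1+/+ libraries, and since they were chosen for this pattern no test is given.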

How the data were processed

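Liver RNA libraries of 6 samples, 3 per genotype by their labels, were prepared with a kit that keeps no strand information. The deposited table holds whole read counts per gene, without normalization, and RPKM that the authors had scaled by multiplying with each library's TMM factor, per the file headers. For each gene, RPKM over the header factor was divided by the gene's share of library reads. This ratio lay within 5% of the gene's own median over the 6 libraries for 97.95% of values over 11559 genes. No gene length was used, so the RPKM themselves were not recomputed. STAR and the mouse build mm10 are named per the submitters' processing notes; versions and the read counter are not given in the sources used here. The 93 entries that are no gene, with 5 reads, were left out.

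The members, lists and tests were chosen with earlier results of these data known. Of 24489 entries, 13819 passed filterByExpr. Counts were scaled by TMM and tested, two-sided, with edgeR's quasi-likelihood test and Benjamini-Hochberg adjustment over all genes tested (R 4.3.3 with edgeR 4.0.16, DESeq2 1.42.0 and limma 3.58.1). The SE was taken from the F statistic, as the log2 fold change divided by its square root. The fit was also run on simulated counts with known changes planted equally in both directions. That setting lacked the fall in Alb of these libraries, so no conclusion on the calls is drawn from it. The common coefficient of biological variation was 0.243. Members, their partners and paralogs, up to 3 genes of each list with the smallest p, called genes of a list with 5 or fewer in a direction, and the 3 genes most like Gpnmb formed the choice of named genes, not all of which are described here; Csf1r, Adgre1, Clec4f and Spp1 were added after their values were seen. Adgre1 was matched through an older symbol, and Ly6g and Trac were not matched. Alternatives were another scaling (RLE, library totals), DESeq2, quality weights, limma on log2(RPKM + 1) and log2(RPKM + 0.1), no filter or a stricter one, a replicate block, sex as a covariate, paralog reads summed and each library left out. One more, RPKM with the header factors dividing as edgeR does, was chosen after seeing the data. Overlaps and transcript alignments used GENCODE on GRCm38.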

Additional observations from a re-analysis of the deposited data

How the results depend on the processing

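Gpnmb, Lgals3 and Cd9 were past the threshold in 18 of 18 alternatives, Lyz2 in 16, Trem2 in 15 and Cd68 in 8, while Itgax, Ctsk, Ly6c2 and Msr1 passed in none, and no log2 fold change of the 10 turned. Between 3 (without Jag1+/+ replicate 2) and 6 of the 10 were called without single libraries. Over all genes the call count was 1054 (653 higher, 401 lower); it was 1858 with DESeq2 (1123, 735), 1594 with quality weights (644 lower), 489 on RPKM with a pseudocount of 1 (388, 101), 544 with 0.1 (427, 117) and 596 with sex as a covariate (366, 230), with 420 higher where the header factors divided and 210 lower with library totals. Without single libraries it ranged from 282 to 1211, with 155 to 679 higher and 127 to 532 lower. Leaving out a Jag1+/+ library gave 282 to 342, and leaving out Jag1Ndr/Ndr replicate 1 gave 1211. The cause was not tested for any of these settings. Library totals and the deposited RPKM moved the median of all genes by 0.13 and 0.21 and the higher share of calls from 62.0% to 74.3% and 79.3%; with the header factors dividing that share was 54.5%. Relative to Kupffer cell markers the log2 ratio turned to -0.015 for Cd68, -0.29 for Itgax and -0.26 for Ly6c2. Relative to general macrophage markers it ranged over the left-out libraries from -0.19 to 0.39 for Itgax (below 0 without Jag1+/+ replicate 3 or Jag1Ndr/Ndr replicate 2), from -0.096 to 0.27 for Ly6c2 (below 0 without Jag1+/+ replicate 2) and from -0.30 to 0.078 for Msr1 (above 0 without Jag1Ndr/Ndr replicate 1). Same-numbered libraries of the 2 genotypes correlated at 0.0856, 0.170 and 0.195 in their deviations, each best with its own number, which is a hint and no pairing by design; with a replicate block 1430 genes and 6 of the 10 were called. At these depths the 10 to 26 reads of Gpnmb in Jag1+/+ limit its fold.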
